A study of Bombus terrestris with 8 samples.

Results

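bte-mir-184, the *Bombus terrestris* member of the mir-184 family, was the second most abundant microRNA (miRNA) in larvae destined to become workers, with 350755 reads or 17.1% of all reads on listed miRNAs. It is 1 of 65 entries in the list of sequenced *B. terrestris* miRNAs and was taken by its name. With the mature sequence listed at 2 loci counted once, and an entry with blank cells in 7 libraries left out, 63 distinct mature sequences had no blank cell in any library, and shares and ranks below are over these 63. In late larvae bte-mir-184 made up a larger share of the listed reads, 27.1% ± 6.69 (SD, n = 4), than in early larvae, 14.9% ± 2.24 (SD, n = 4). Its normalized read count was 2.10-fold higher in late larvae.

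Small RNA was sequenced from whole bodies of diploid female worker-destined larvae taken from 4 colonies, in 8 libraries. The 4 late libraries hold larvae of instar 4 and the 4 early libraries hold larvae of instars 1 and 2, with larvae of the same colony and stage pooled before RNA was extracted. No treatment or genotype differed between the groups, and all larvae were destined for the same caste, so stage is the only contrast and caste was not compared. A 3′ adaptor with degenerate bases at its end was used in all libraries, a change to the standard kit made to lower sequencing bias.

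MiRNAs are small RNAs that guide Argonaute proteins to messenger RNAs, which are then repressed, and bases 2 to 8 of the miRNA, the seed, set most of the pairing. mir-184 is shared by insects and vertebrates. In *Drosophila melanogaster* it is needed for the formation of the egg and for early embryos, and saxophone, a receptor of the Dpp growth factor pathway, is among its targets there. In *Apis mellifera* it has been linked to the food of worker-destined larvae and to caste. bte-mir-1, the miRNA set beside it here because it is the most abundant in the list, is specific to muscle in animals generally.

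The sequences show the molecule that was counted, the hairpin it comes from and the miRNA it is compared with, all 5′ to 3′ in DNA letters as deposited. In the mature sequences the capitals mark the seed, and in the precursor they mark the mature sequence.
bte-mir-184 mature: tGGACGGAgaactgataagg
bte-mir-184 precursor: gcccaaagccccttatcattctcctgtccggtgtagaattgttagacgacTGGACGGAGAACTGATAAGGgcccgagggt
bte-mir-1 mature: tGGAATGTaaagaagtatggag
The precursor of bte-mir-184 lies on the minus strand of scaffold Group13.5 of Bter_1.0, from 3607419 to 3607498, and its mature sequence from 3607429 to 3607448. No annotation of that assembly was used here, so the locus was not placed within or between genes. The mature sequence takes bases 51 to 70 of the 80 nt precursor, which is the 3p arm. Folded with RNAfold, the precursor had a minimum free energy of −37.8 kcal/mol. In this fold 19 of the 20 mature bases were paired, all with bases 11 to 30 on the 5p arm.

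The 20 nt sequence of bte-mir-184 was the shortest in the list, where lengths ran from 20 to 25 nt with a median of 22 nt, and it was the only entry of 20 nt. The next base of the precursor after its 3′ end is G. Whether reads that end further along were added to its count is not stated in the sources used here, and this choice could change every count of bte-mir-184 given below. Its reads are not shared with another entry by sequence. The seed GGACGGA occurred in 0 of the other mature sequences and 0 of the other precursors, on the printed strand, and the closest other mature sequence matched 11 of its 20 bases without gaps. The precursor stood alone on its scaffold apart from bte-mir-6001 (4555798 to 4555865, minus strand), 948300 bases away.

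Reads on listed miRNAs numbered 45649 to 257161 in the late libraries and 204223 to 502540 in the early libraries. They count reads on the list alone, and the full depth was not used here. Every library came from its own pool of larvae, and no pair of libraries within a stage agreed within sampling noise (chi-square per degree of freedom 19.0 to 229), so none was treated as a library deposited again. The study made a pair of libraries from each colony. The labels do not say which colony is behind which library. Each library still shares its colony with another. The exact permutation tests and the edgeR and DESeq2 fits on stage alone treat all libraries as independent. Among miRNAs tied to tissue or time, bte-let-7, which is switched on by ecdysone in late *Drosophila* development, took 0.294% to 0.561% of reads in late libraries and 0.172% to 0.289% in early libraries (log2 fold change 1.05, standard error 0.32, adjusted p = 0.0181 from edgeR's quasi-likelihood test). bte-mir-124, a miRNA of the nervous system, took 0.00219% to 0.00564% of reads in late libraries and 0.00358% to 0.00696% in early libraries, which overlapped, with a log2 difference of −0.43 (standard error 0.55, edgeR adjusted p = 0.556).

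bte-mir-184 had 45218, 38847, 39569 and 14807 reads in late replicates 1 to 4, and 61741, 70473, 32119 and 47981 reads in early replicates 1 to 4. Late libraries held fewer listed reads, so these raw counts do not compare the stages. As a share of the listed reads it made up 17.6%, 27.4%, 31.0% and 32.4% in late replicates 1 to 4, against 12.3%, 14.0%, 15.7% and 17.5% in early replicates 1 to 4. Late replicates 2 to 4 lay far above every early library, while late replicate 1 lay beside the highest early library.

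**Figure D1:**
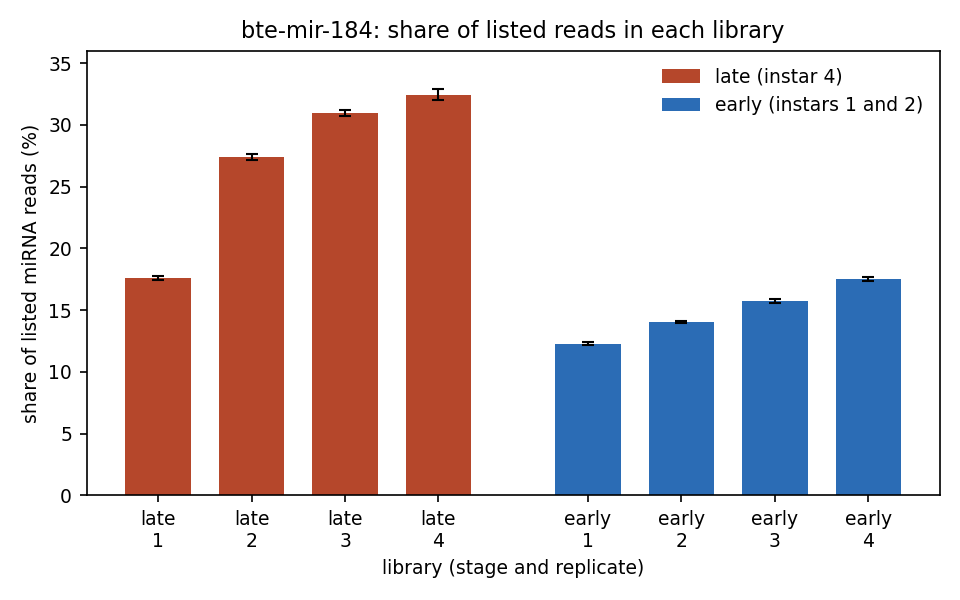
Share of listed miRNA reads on bte-mir-184 (y axis, percent) in each library (x axis), late libraries in red and early libraries in blue. Bars are single libraries and black error bars are exact 95% binomial intervals for counting error. The late libraries run from 17.6% to 32.4% and the early libraries from 12.3% to 17.5%.

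The shares of the 4 late and 4 early libraries did not overlap, but the gap between late replicate 1 and early replicate 4 was 0.0864 percentage points. Their exact (Clopper-Pearson) 95% intervals, 17.4% to 17.7% in late replicate 1 and 17.4% to 17.6% in early replicate 4, did overlap. These intervals cover counting error only. The mean share was 12.2 percentage points higher at the late stage (two-sided exact permutation test, p = 0.0286, the smallest that 4 against 4 libraries allow). This was 1 of 3 single-value tests of bte-mir-184, and after Benjamini-Hochberg adjustment over the 3 it did not pass 0.05 (exact permutation test, adjusted p = 0.0857). Without late replicate 1 the late mean was 30.3% ± 2.59 (SD, n = 3).

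Depth went with the share in late libraries, and less closely in early ones. Late replicate 1, with the most listed reads of its stage, had the lowest share, and late replicate 4, with 45649 reads, had the highest. Among early libraries replicates 1 and 2, with 502277 and 502540 reads, had the lowest shares, but replicate 4, with 274222 reads, had a higher share than replicate 3, with 204223. With every library thinned at random to the smallest listed total, the difference in mean share was 12.3 percentage points. The fitted log2 fold change was then 0.83 (standard error 0.26, edgeR adjusted p = 0.0280). Thinning evens the number of reads only, and the part of depth in the difference between stages was not tested otherwise.

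By rank bte-mir-184 stood second in all 8 libraries, behind bte-mir-1 in each. What followed it differed between stages. Among late libraries rank 3 was held by bte-mir-9a in replicate 1, bte-mir-276 in replicates 2 and 3 and bte-mir-8 in replicate 4, and bte-mir-184 had 2.56, 3.80, 5.31 and 3.65 reads for each read of that miRNA in late replicates 1 to 4. In the early libraries bte-mir-9a held rank 3 throughout, and the same ratio was 1.12, 1.49, 1.69 and 1.73 in early replicates 1 to 4. bte-mir-184 was thus close to the next miRNA in early larvae and well clear of it in late larvae, with no overlap between the stages.

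The ratio of bte-mir-184 to bte-mir-1 within a library does not depend on how libraries are scaled. It was 0.375, 0.777, 0.880 and 0.939 in late replicates 1 to 4, against 0.304, 0.346, 0.390 and 0.404 in early replicates 1 to 4. In late replicates 2 to 4 the reads of bte-mir-184 came close to those of bte-mir-1, while late replicate 1 fell within the range of early libraries. The log2 ratio was −0.51 ± 0.61 in late larvae and −1.48 ± 0.19 in early larvae (SD, n = 4 each). This difference of 0.97 did not pass 0.05 (two-sided exact permutation test, p = 0.0857, also 0.0857 after adjustment). Without late replicate 1 it was 1.27 (exact permutation test, p = 0.0286, the smallest that 3 against 4 libraries allow). Late replicate 1 was the only late library within the early range, so leaving it out made the stages separate. This p thus adds no support.

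bte-mir-1 itself took 46.8%, 35.3%, 35.2% and 34.6% of listed reads in late replicates 1 to 4, and 40.5%, 40.6%, 40.3% and 43.3% in early replicates 1 to 4. Its share in late replicate 1 was thus the highest of all 8 libraries. That library was low in bte-mir-184 for its stage and high in bte-mir-1. Together the pair made up 62.7% to 67.0% of listed reads in late libraries and 52.8% to 60.8% in early libraries, which did not overlap.

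Of the 63 sequences, 9 had at least 1% of all listed reads, and together they held 92.8%. Since shares add up to a fixed total, the higher share of bte-mir-184 has to be matched by lower shares elsewhere. The mean share was lower in late larvae for 5 of the 8 others, by 13.9 percentage points in sum. bte-mir-9a, which acts on sensory organ precursors in *Drosophila*, averaged 5.47% ± 1.30 in late larvae and 9.94% ± 0.761 in early larvae (SD, n = 4 each). bte-bantam, which promotes growth and blocks cell death in *Drosophila*, averaged 2.48% ± 0.538 in late larvae and 5.44% ± 0.576 in early larvae (SD, n = 4 each). Neither overlapped between the stages. bte-mir-8, which acts on growth through the fat body in *Drosophila*, averaged 6.52% ± 1.62 in late larvae and 5.66% ± 0.533 in early larvae (SD, n = 4 each), and its stages overlapped.

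Against each of these 8 miRNAs the mean log2 ratio of bte-mir-184 was higher in late larvae. For 4 of them, bte-mir-9a, bte-mir-276, bte-bantam and bte-mir-315, every late library lay above every early library. bte-mir-184 had 2.56 to 8.63 reads for each read of bte-mir-9a in late libraries and 1.12 to 1.73 in early libraries. Set against bte-bantam it had 5.95 to 18.3 reads in late libraries and 2.23 to 3.80 in early libraries. Against bte-mir-315, which activates Wingless signalling in *Drosophila*, the ratio was 9.64 to 22.03 in late libraries and 4.46 to 7.63 in early libraries. For the other 4, bte-mir-1, bte-mir-8, bte-mir-375 and bte-mir-750, the stages overlapped.

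**Figure D2:**
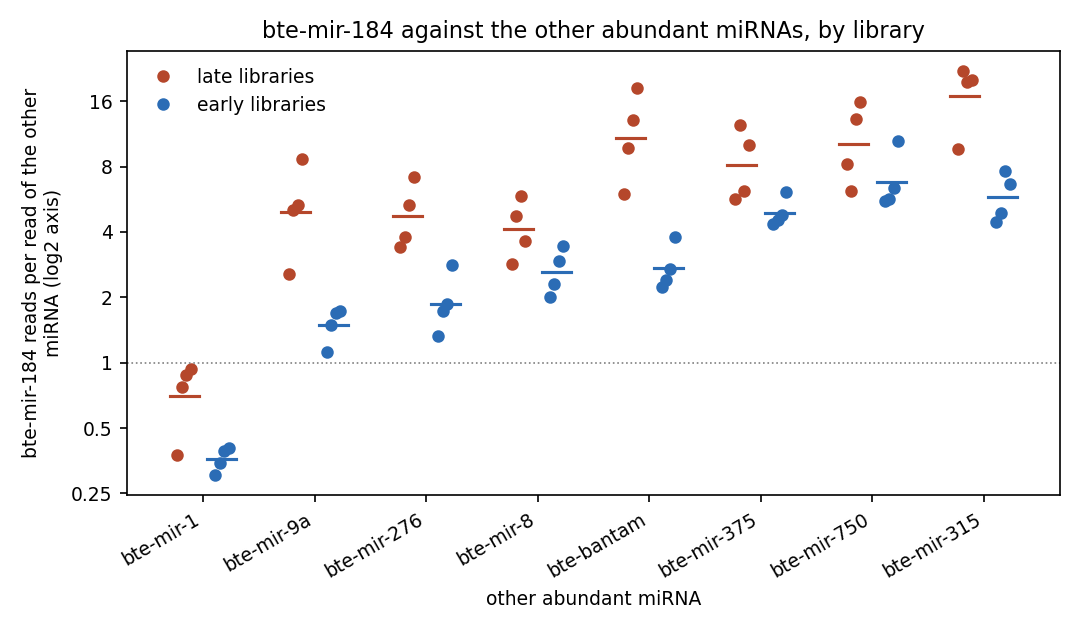
Reads of bte-mir-184 for each read of the 8 other abundant miRNAs (y axis, log2 scale, dotted line at equal reads) by miRNA (x axis). Points are single libraries, late in red and early in blue, and short lines are geometric means. The late points lie wholly above the early points for bte-mir-9a, bte-mir-276, bte-bantam and bte-mir-315, and the ratio to bte-mir-1 stays under 1 in every library.

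A wider yardstick was the mean log2 count of the 41 other miRNAs with a count above 0 in every library, in which each miRNA has equal weight. On this scale bte-mir-184 had 117, 158, 227 and 214 times the geometric mean of the others in late replicates 1 to 4, against 73.0, 81.4, 93.8 and 127 times in early replicates 1 to 4. Late replicate 1 lay below early replicate 4, so the stages overlapped. The difference in the log2 ratio was 0.91 (two-sided exact permutation test, p = 0.0571, 0.0857 after adjustment). Of these 41 miRNAs, 36 had a higher mean log2 ratio of bte-mir-184 to themselves in late larvae. For 18 every late library lay above every early library, and for 2 every late library lay below.

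Normalized by TMM, which scales libraries so that most miRNAs keep their level, the count of bte-mir-184 was 200776, 316877, 362195 and 290775 CPM (counts for every 1000000 scaled reads) in late replicates 1 to 4, against 105756, 122480, 140856 and 187985 CPM in early replicates 1 to 4. Every late library lay above every early library. The fitted log2 fold change of late over early was 1.07 (standard error 0.23, adjusted p = 0.00273 over the 62 miRNAs tested, edgeR's quasi-likelihood test). With this test 20 of the 62 miRNAs were called at an adjusted p under 0.05, or 32.3% of those tested, and 12 of them, 19.4% of those tested, were higher in late larvae. Late libraries lay wholly above early ones for 8 miRNAs, or 12.9%. A call of this kind was thus not rare in the list.

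bte-mir-184 ranked eighth by p-value and 18th by size of change among the 62. Among the 9 abundant miRNAs it was the only one called higher in late larvae. bte-bantam was the only one called lower, by −0.86 on the log2 scale (standard error 0.24, edgeR adjusted p = 0.0129). bte-mir-9a changed by −0.60 (standard error 0.24) and was not called (edgeR adjusted p = 0.0691). Whether bte-mir-184 changed more than the other abundant miRNAs was not tested over replicates beyond the ratios given above.

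**Figure D3:**
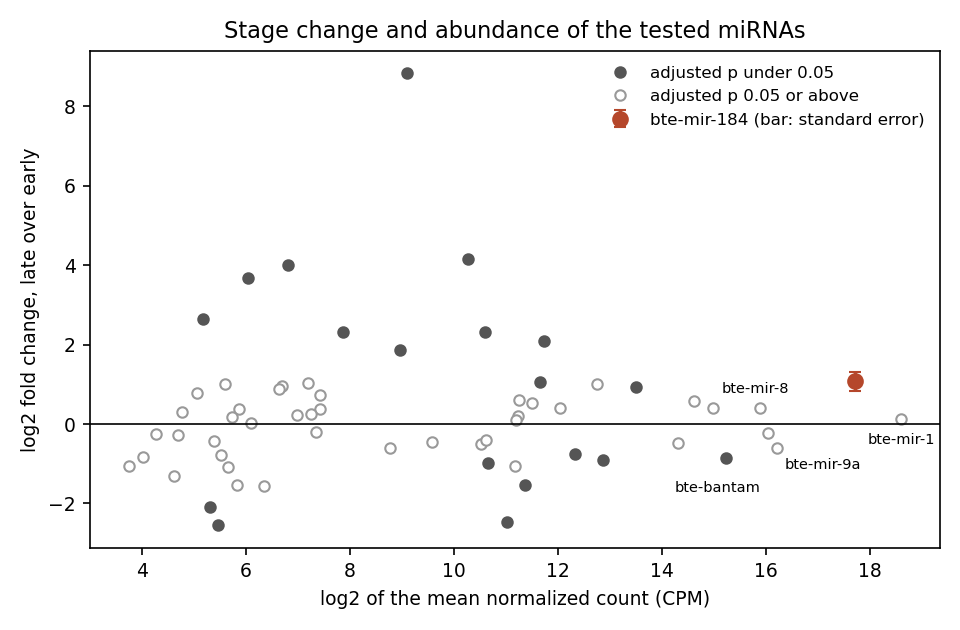
Log2 fold change of late over early larvae (y axis) against log2 of the mean normalized count in CPM (x axis) for the 62 tested miRNAs. Filled points have an edgeR adjusted p under 0.05, open points do not, and bte-mir-184 is in red with its standard error. bte-mir-184 stands at 1.07, and of the 9 abundant miRNAs it and bte-bantam are the filled ones. The highest point is bte-mir-6001, with so few early reads that its fitted value depends on the prior count.

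The size of the change held under most scalings. It was 1.06 with DESeq2's size factors (adjusted p = 0.00117) and 0.86 with scaling by the listed total alone (edgeR adjusted p = 0.00255). With library sizes and TMM factors computed without bte-mir-1 and bte-mir-184, so that neither could set the scale it was measured on, it was 0.93 (edgeR adjusted p = 0.0107). With each library scaled by its bte-mir-1 count, a setting added after the data had been seen, it was 1.04 (edgeR adjusted p = 0.0162). This last fit draws on all miRNAs for its estimate of the spread, and passed where the exact permutation test of the ratio to bte-mir-1, over libraries alone, did not.

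Leaving out early replicate 2 ended the call. The log2 fold change was then 0.65 (standard error 0.32, edgeR adjusted p = 0.138). The median change over the 62 tested miRNAs was −0.26 in the same fit, against 0.18 with all 8 libraries, so relative to that median bte-mir-184 stood at 0.91 without early replicate 2 and at 0.89 with all libraries. With scaling by the listed total, also added after the data had been seen, the change without early replicate 2 was 0.84 (edgeR adjusted p = 0.0118). Leaving out late replicate 1, the library nearest to early larvae, gave 0.81 with TMM (edgeR adjusted p = 0.0116), 1.32 above the median of that fit. With scaling by the listed total, again added after the data had been seen, it gave 1.02 (edgeR adjusted p = 1.89e-06). Leaving out the late library with the lowest share can only raise the difference in shares, so this p adds no support. Relative to the median, bte-mir-184 lay between 0.76 and 1.32 in all 21 fits other than the one with all 8 libraries and TMM.

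**Figure D4:**
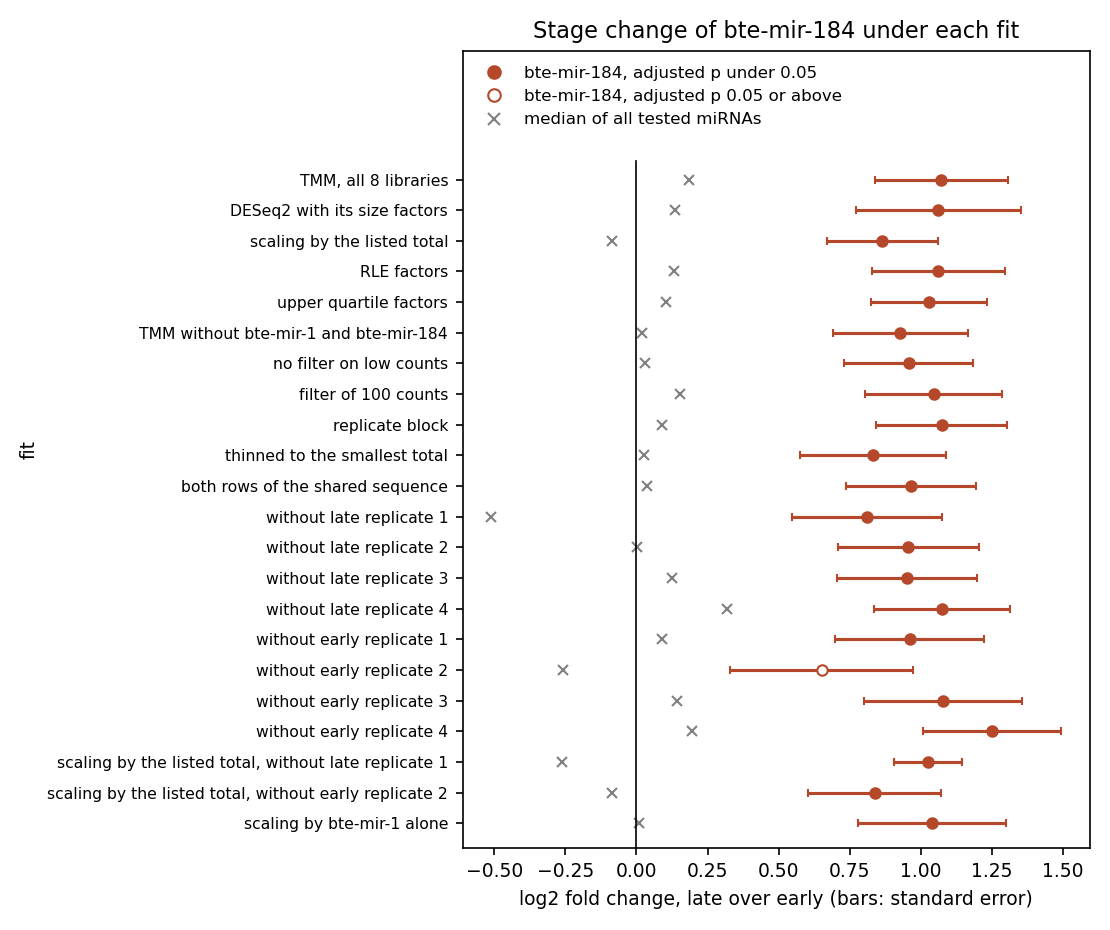
Log2 fold change of bte-mir-184, late over early (x axis, bars are standard errors), in each fit (y axis). Filled points have an adjusted p under 0.05, the open point does not, and grey crosses are the median of all tested miRNAs in that fit. Every point lies above 0, from 0.65 without early replicate 2 to 1.25 without early replicate 4.

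The replicates of a stage differed for bte-mir-184. Its biological coefficient of variation, the spread between replicates beyond counting error, was 29.4%. Over the 9 abundant miRNAs this value ran from 25.6% (bte-mir-8) to 33.2% (bte-mir-750), and the common value for the list was 37.4%. On the log2 scale of normalized counts the SD of bte-mir-184 was 0.36 over late libraries and 0.35 over early libraries. bte-mir-184 had the highest early value of the 9 abundant miRNAs. As a share of listed reads its coefficient of variation over early libraries was 15.02%, and bte-mir-276 (15.98%) and bte-mir-750 (17.0%) were more variable there. Thus the place of bte-mir-184 among the variable miRNAs of early larvae rested on the scaling.

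The 3 miRNAs whose log2 share of listed reads went most closely with that of bte-mir-184 over the 8 libraries, among 38 others with at least 100 reads and no count of 0, were MC295, bte-mir-2765 and MC1607. All are shares of the same library totals, and the values include the difference between stages. Within a stage there are only 4 libraries, and of the 3 only MC295 kept a positive r in both stages. MC295, an entry without a miRBase identifier, had Pearson's r = 0.90 and Spearman's rho = 0.93, and r = 0.94 without late replicates 3 and 4, the libraries farthest from the median. It had 75, 91, 60 and 78 reads in late replicates 1 to 4 and 84, 68, 54 and 90 reads in early replicates 1 to 4, hence near-equal raw counts from libraries of unequal depth. MC295 changed by 1.87 on the log2 scale (standard error 0.52, edgeR adjusted p = 0.0129). With such counts its share, and so this change, ran against the number of listed reads. Its likeness to bte-mir-184 was not tested apart from depth. bte-mir-2765 had r = 0.78 and rho = 0.67, and r = 0.72 without the same libraries, but −0.15 within late and −0.23 within early libraries. MC1607 had r = 0.78 and rho = 0.76, and r = 0.72 without them, but 0.40 within late and −0.69 within early libraries. The likeness of bte-mir-2765 and MC1607 to bte-mir-184 was thus not seen library by library in both stages.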

How the data were processed

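Reads of all 8 libraries were pooled by the authors and placed on the genome of *B. terrestris* (Bter_1.0 scaffolds), where precursors were predicted with miRCat or kept by conservation. The authors deposited raw read counts per mature sequence and library, neither normalized nor pooled. The aligner, mismatches allowed, treatment of end variants and any removal of duplicates by the degenerate bases are not given in the sources used here. Count columns were matched to libraries by stage initials and number.

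The 62 sequences that reached 10 counts in total were scaled by TMM and fitted with edgeR 4.0.16 (quasi-likelihood test, stage as the only term, Benjamini-Hochberg adjustment over all 62) in R 4.3.3. DESeq2 1.42.0 was an alternative. Standard errors were approximated from the log2 fold change and the F statistic (size of the change over the root of F). Shares and ratios were compared by exact permutation over libraries (70 arrangements of 4 against 4), two-sided by absolute difference (Python 3.11.15, numpy 2.4.6, pandas 2.3.3, SciPy 1.17.1). Precursors were folded with RNAfold 2.7.2. Both tests were tested on simulated data. A count of 0 in late replicate 4, with 45649 listed reads, leaves room for 58.9 CPM (3 counts, TMM scale).

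bte-mir-184, the lists and the tests were chosen with earlier results of these data known. Named miRNAs were bte-mir-184, bte-mir-1, those with at least 1% of listed reads, the 3 most alike over libraries, those that share its seed, the nearest entry and those of rank 1 to 3 in a library, with bte-mir-1, bte-mir-124, bte-let-7, bte-mir-100 and bte-mir-125 as markers of tissue and stage. bte-mir-125 was not called (edgeR adjusted p = 0.184) and bte-mir-100 was not analysed here.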

Additional observations from a re-analysis of the deposited data

How the results depend on the processing

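bte-mir-184 was higher in late larvae in every alternative run, 22 for its log2 fold change (0.65 to 1.25), 12 for its share, 11 for its ratio to bte-mir-1 and 12 for its ratio to the other miRNAs. Adjusted p from edgeR or DESeq2 passed 0.05 in 20 of 21 alternative fits, the exception being that without early replicate 2. Of the 22 runs for the log2 fold change, 19 were planned. The unplanned ones were scaling by bte-mir-1 alone and scaling by the listed total without late replicate 1 or without early replicate 2. All of these unplanned fits passed 0.05 and are counted among the 20. With each library left out in turn the log2 fold change ran from 0.65 to 1.25, the difference in share from 10.4 to 15.4 percentage points, the log2 ratio to bte-mir-1 from 0.82 to 1.27 and the log2 ratio to the others from 0.78 to 1.10. The share then missed 0.05 whenever an early library was left out (exact permutation test, p = 0.0571). Both ratios passed only without late replicate 1 (exact permutation test, p = 0.0286), the only late library within the early range of either ratio. Against the median of the other miRNAs in place of their mean the log2 ratio was 1.43 (exact permutation test, p = 0.0286). Between 15 and 29 miRNAs were called over the alternatives, against 20. The deviations of same-numbered libraries had r = 0.35, 0.21, −0.13 and −0.17 over 39 miRNAs, of mixed sign. These few values cannot tell which libraries share a colony. Since the labels do not say either, the numbers were not taken as pairs. Libraries with other numbers went together more closely in places (r = 0.52 between late replicate 4 and early replicate 3), and colonies shared across stages were not modelled. With the replicate number as a block the log2 fold change was 1.07 (edgeR adjusted p = 0.00242, 18 calls). In the block test by sign flips of 4 pairs the difference in share was 12.2, the log2 ratio to bte-mir-1 0.97 and that to the others 0.91, each at the smallest p allowed (exact permutation test, p = 0.125). A correction for GC content with the replicate block gave 1.03.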
